A study of Mus musculus with 8 samples.

Results

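The genes described here are 49 nuclear genes for subunits of the mitochondrial oxidative phosphorylation system, with DNA methylation in and around them measured in mouse hematopoietic stem cells. The list names them by their place in this pathway, not by a methylation threshold, and all 49 were found among 20661 autosomal protein-coding genes. They comprise 22 genes of complex I (NADH dehydrogenase), 4 of complex II (succinate dehydrogenase), 6 of complex III (the cytochrome bc1 complex), Cycs for cytochrome c, 12 of complex IV (cytochrome c oxidase) and 4 of complex V (ATP synthase). Ndufa4, which was first described in complex I and later assigned to complex IV, is counted here by its symbol. Every CpG from 5000 bp before to 5000 bp after a gene was taken, with both strands added, when at least 3 mice of each group had 10 or more reads there. This gave 2328 CpGs, of which 2108 were covered in all 8 mice.

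The method was enhanced reduced representation bisulfite sequencing, which reads CpG-rich restriction fragments after bisulfite has converted unmethylated cytosines. The 4 knockout mice carried the genotype Atg12fl/flMx1-cre, in which Cre recombinase under the interferon-inducible Mx1 promoter deletes a loxP-flanked part of Atg12. The label of the 4 control mice reads WT, whereas the design text gives them as Atg12flox/flox without Cre. Mice of both groups were C57BL/6 and received poly(I:C), an inducer of interferon, at 4 weeks of age, and bone marrow cells were taken 2 to 3 months later. Cells negative for lineage markers, Flk2 and CD48 and positive for c-Kit, Sca-1 and CD150 were sorted and were not cultured, and each mouse gave 1 library. Mx1-Cre is active in many tissues, so the deletion is not restricted to the sorted cells, and methylation data cannot show whether the sorted cells carry the surface markers of the gate. The deletion of Atg12 itself was not checked here.

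Oxidative phosphorylation passes electrons from NADH and succinate through complexes I to IV to oxygen, and complex V uses the resulting proton gradient to make ATP. Most subunits of these complexes are encoded in the nucleus, usually from CpG-rich promoters of the housekeeping kind, which are free of methylation in most tissues. Quiescent hematopoietic stem cells are known for low mitochondrial activity, and Atg12 is a ubiquitin-like protein needed to form the autophagosomes that, among other cargo, degrade mitochondria. A few complex IV subunits exist as a broadly expressed and a tissue-restricted isoform from separate genes.

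The deposited tables listed 2038266 to 3366162 cytosines per mouse. Over the CpGs of these genes, the median number of reads ranged from 247.5 in knockout 28 to 373 in knockout 25. The libraries also differed in 2 other ways. Cytosines on the Y chromosome made up 7.90 to 9.01 of every 10000 listed in the knockouts and 1.15 to 1.83 in the controls, so every genotype difference given here is one of Y-chromosome content as well, and these cannot be told apart. The coverage of methylated CpGs relative to unmethylated CpGs ranged from 0.348 in control 34 to 0.813 in control 1 and was 0.433 to 0.581 in the knockouts. Methylated DNA was thus sampled less deeply in control 34 and in knockout 25, which had the lowest ratios of their groups.

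Methylation of these genes was divided sharply between gene ends and gene bodies. A gene end here is the 1000 bp on either side of the gene boundary that has more listed CpGs, and its level is the percentage of all reads there that were methylated. Of 44 gene ends with at least 3 CpGs covered in all mice, 38 had a mean level over the 8 mice under 1% and 41 had one under 5%. The median gene end stood at 0.207%, compared with 0.300% over 13410 gene ends of all genes, of which 67.9% were under 1% and 83.2% under 5%. Gene bodies, more than 1000 bp inside both boundaries, had a median of 93.4% over 12 measured genes, compared with 79.1% over 11598 genes. The plot of levels by complex shows this separation and the 3 gene ends that departed from it, Ndufs6, Cox4i2 and Cox6a2.

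**Figure D1:**
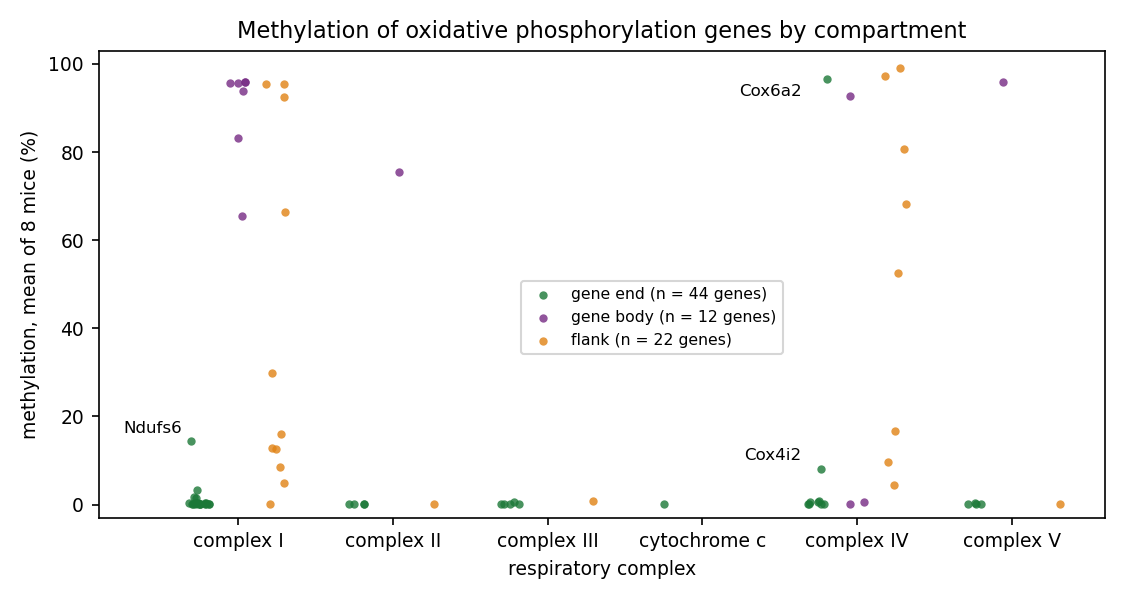
Methylation level (%, mean of 8 mice) of each measured compartment of the oxidative phosphorylation genes, by complex on the horizontal axis; points are genes, spread sideways for legibility. Gene ends lie near 0 except for Ndufs6, Cox4i2 and Cox6a2, and most gene bodies lie above 80%.

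The complexes had similarly low gene ends. In complex I, 20 of 21 measured gene ends were under 5% and the median was 0.235%. The lowest was that of Ndufa2, an accessory subunit, with 0.0393% ± 0.0786 (SD, n = 4) in knockouts and 0.0619% ± 0.124 (SD, n = 4) in controls. All 4 complex II genes were under 1%, from 0.115% at Sdha, the flavoprotein that oxidises succinate, to 0.203% at Sdhd, a membrane anchor. All 5 measured complex III genes were under 1% as well, from 0.148% at Uqcrc2 to 0.560% at Uqcrc1, both core proteins of the complex. Cycs, whose product carries electrons from complex III to complex IV, stood at 0.197%. The 4 complex V genes spanned 0.124% at Atp5o, the stalk subunit that confers oligomycin sensitivity, to 0.264% at Atp5c1, the rotating gamma subunit. Complex IV was the most varied, with 7 of 9 measured gene ends under 1%, a median of 0.494% and a highest level of 96.5% at Cox6a2.

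Several core and catalytic subunits had densely covered gene ends. Cox4i1 had 104 CpGs with 33453 to 57168 reads per mouse, and Ndufs1, the largest core subunit of complex I, had 85 CpGs with a mean of 0.257% and a range of 0.131 to 0.476% over the mice. Ndufv2, a core subunit next to Ndufv1 in the NADH-oxidising module, had 58 CpGs at 0.214%. The iron-sulfur proteins Sdhb and Uqcrfs1 had 45 CpGs at 0.196% and 34 CpGs at 0.238%, and Cyc1, which passes electrons to cytochrome c, had 48 CpGs at 0.210%. The alpha and beta subunits of complex V, Atp5a1 and Atp5b, had 47 CpGs at 0.142% and 31 CpGs at 0.126%. No mouse was above 0.505% at these 7 genes, Cox4i1 left aside. Several accessory subunits of complex I were also low, among them Ndufa4 at 0.0733% over 34 CpGs, Ndufa8 at 0.114% over 28 CpGs and Ndufb9 at 0.330% over 41 CpGs. Coverage was thinnest at Ndufb5, with 3 CpGs and 297 to 550 reads per mouse, and there 1 mouse reached 1.83%.

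Low methylation extended over single CpGs and not only over sums. In the 38 gene ends under 1%, 10 of 1246 CpGs had a mean of 5% or more, and these lay in 5 genes. The highest level of such a gene end in any mouse was 2.32%, at Cox6b2 in knockout 25. The other 3 gene ends under 5% were those of Ndufs7, Ndufv1 and Ndufc1, and their methylated CpGs lay away from the start. Ndufv1 encodes the subunit that binds NADH, and 4 of its 34 CpGs reached 5% or more, at 392 to 589 bp from the start. In Ndufc1 the same held for 5 of 42 CpGs, at 537 to 733 bp. Ndufs7, a core iron-sulfur subunit, had only 3 CpGs at its end, and its level of 3.31% came mainly from a CpG 410 bp from the start.

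Not every member could be measured at its end. Ndufa5, Cox7a1 and Cox7a2 had no CpG there by the rule, and Uqcrb and Cox5a had 2 and 1 covered in all mice. For Cox5a and Cox7a2 the gene boundary used lies 3904 bp and 11569 bp from the RefSeq start in the promoter table. Measured at that start, Cox5a had 83 CpGs at 0.236% and Cox7a2 had 37 CpGs at 0.142%. With these, 43 of 46 gene ends were under 5%.

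A start was known for 36 members, and single CpGs were placed by their distance from it. Within 250 bp of the start, 687 of 699 CpGs in 32 genes had a mean level under 5%, and the 12 others all belonged to Ndufs6. From 250 to 500 bp, 272 of 277 CpGs were under 5%, and from 500 to 1000 bp 36 of 49 were. From 1000 to 2000 bp only 7 of 27 CpGs were under 5% and 14 were over 80%. The plot of CpG level against distance shows the low region as a narrow floor around the start. Levels near 0 also recur farther out.

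**Figure D2:**
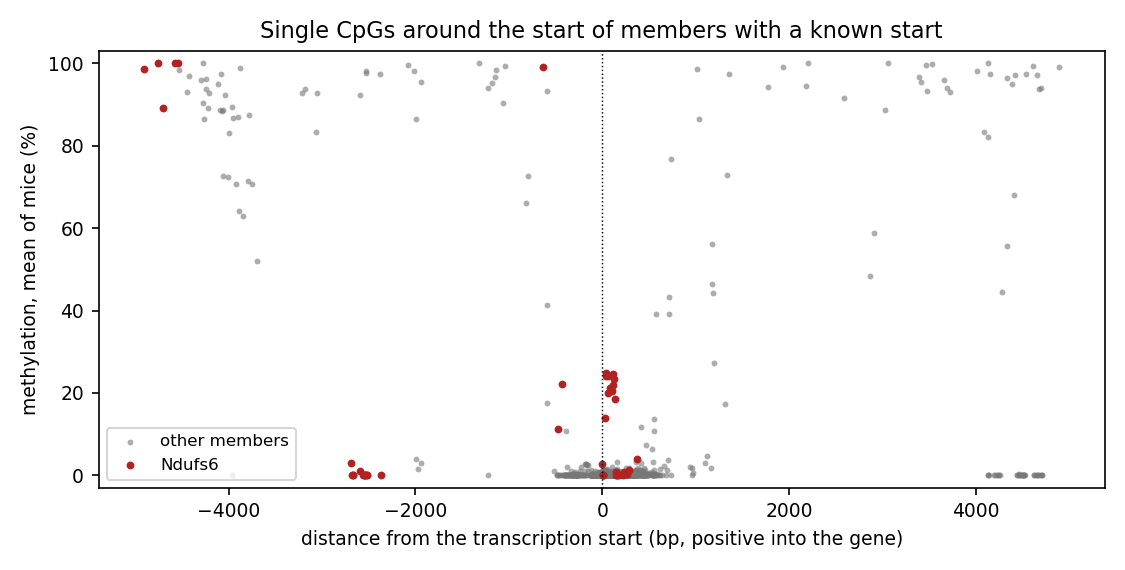
Methylation level (%, mean over mice) of single CpGs against distance from the transcription start (bp) for members with a start in the promoter table; Ndufs6 in red, other members in grey. Of 699 CpGs within 250 bp of a start, 12 reach 5% or more and all are in Ndufs6.

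The promoter sequences are shown for the member that departed from this floor, Ndufs6, and for a member that shares a motif with it and did not, Ndufa9. Both encode accessory subunits of complex I. The sequences run from 250 bp before to 50 bp after the start and come from the RefSeq promoter table on GRCm38.p6, the assembly of mm10. The Ndufs6 promoter lies at chr13:73328433-73328732 on the minus strand and that of Ndufa9 at chr6:126849095-126849394 on the minus strand. Capitals mark CpGs with a methylation value here.
Ndufs6: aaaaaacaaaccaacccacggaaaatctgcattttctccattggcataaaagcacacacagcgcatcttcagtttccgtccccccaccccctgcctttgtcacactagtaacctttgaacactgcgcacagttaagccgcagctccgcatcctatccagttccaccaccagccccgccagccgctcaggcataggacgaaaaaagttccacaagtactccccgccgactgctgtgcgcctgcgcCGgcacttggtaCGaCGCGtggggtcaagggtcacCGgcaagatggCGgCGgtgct
Ndufa9: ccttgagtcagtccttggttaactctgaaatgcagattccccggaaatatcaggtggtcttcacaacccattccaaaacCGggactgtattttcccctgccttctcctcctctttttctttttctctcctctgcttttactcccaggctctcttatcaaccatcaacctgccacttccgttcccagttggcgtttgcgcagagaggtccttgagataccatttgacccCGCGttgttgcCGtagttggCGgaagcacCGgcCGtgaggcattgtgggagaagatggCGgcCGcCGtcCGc
In Ndufs6 the capitals farthest downstream, from the fifth capital pair on, are the first CpGs of the methylated stretch described next. In Ndufa9 all 11 measured CpGs of the promoter had a mean level below 1%, with 0.851% as the highest.

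Each promoter was searched on both strands for 3 motifs of factors known to control respiratory genes: NRF1, the ETS family with GABPA (CCGGAAGT) and YY1. No match of 1 motif overlapped a match of another in these promoters. The YY1 motif is the run of 11 letters that begins 33 bp after the start in the Ndufs6 sequence above, and it occurred in 4 of 36 member promoters (11.1%) and in 163 of 16456 promoters of all genes (0.991%). The 4 were Ndufs4, Ndufs6, Ndufs7 and Ndufa9, all of complex I, with the match beginning 24 to 35 bp after the start, in the orientation of the gene. The NRF1 motif, a palindrome, occurred in 2 (5.56%), Cox6a1 and Uqcrc1, compared with 1.36% of all promoters. The ETS letters occurred in 2 (5.56%), Ndufs3 and Cox8a, compared with 5.46%. Member promoters also held more CpGs, with a median of 20 per promoter compared with 14 over all. The CpG inside the YY1 match had a mean level of 24.1% in Ndufs6, with 60.0% in the highest mouse, and 0.0442% in Ndufa9. A match of letters does not show that the factor binds there.

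Ndufs6 was the one complex I gene with a gene end above 5%, and its level differed widely between mice of the same genotype. The gene lies at chr13:73319876-73328482 (mm10) on the minus strand. Among the CpGs covered in all mice up to 300 bp downstream of the start, those with a mean of 5% or more were 12 adjacent CpGs within 109 bp (chr13:73328344-73328452), 29 to 137 bp downstream of the start and inside the gene. Summed over these CpGs, the level was 20.6, 14.2, 45.2 and 0.0815% in knockouts 25, 28, 45 and 46. It was 41.1, 3.35, 20.9 and 22.9% in controls 1, 34, 36 and 37. Knockout 45 and control 1 were the highest mice and knockout 46 and control 34 the lowest, so the groups overlapped over almost their whole range.

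The spread between mice was far larger than counting error. The 95% Wilson interval was 44.2 to 46.1% in knockout 45, from 10861 reads, and 0.0317 to 0.209% in knockout 46, from 4908 reads, and these intervals cover counting error only, since several reads can come from 1 DNA molecule. The means were 20.003% ± 18.8 (SD, n = 4) in knockouts and 22.1% ± 15.4 (SD, n = 4) in controls. The 14 measured CpGs on either side, 6 to 287 bp from the start, were between 0.0482 and 1.10% in every mouse when summed. In the plot of Ndufs6 by mouse, the levels drop to near 0 at the next CpG downstream, 148 bp from the start, in all 8 mice. Inside the stretch, the adjacent CpGs 57 and 60 bp from the start differed: the level was lower at the second of them in knockouts 28 and 45 and in controls 1 and 37, for example 38.6% after 60.3% in knockout 45 and 15.5% after 26.6% in control 37. It was higher in knockout 25 and in controls 34 and 36, for example 18.8% after 14.1% in knockout 25 and 3.38% after 0.236% in control 34, and it was 0 at both in knockout 46.

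**Figure D3:**
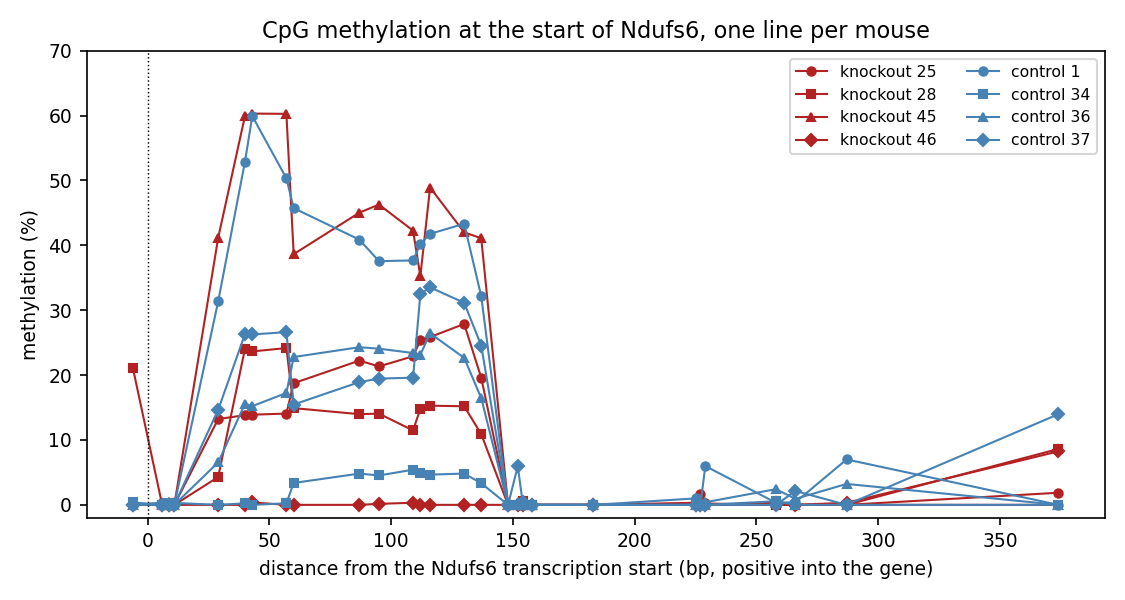
Methylation level (%) of single CpGs at the start of Ndufs6 against distance from the start (bp), with 1 line for each of the 4 knockout (red) and 4 control (blue) mice. The stretch from 29 to 137 bp reaches 60% in the highest mice and stays near 0 in knockout 46, while CpGs on either side stay low, apart from single values in single mice.

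The whole gene end of Ndufs6 held 29 CpGs, and its group means differed by less than the spread between mice. The level was 13.5% ± 12.9 (SD, n = 4) in knockouts and 15.2% ± 10.8 (SD, n = 4) in controls. The unadjusted p of the moderated quasi-binomial model fitted over all genes was 0.977. Its range over the 8 mice, 30.5 percentage points, was larger than that of 87.5% of the 1890 gene ends tested. Averaged over its 12 CpGs, the stretch had more reads per CpG than its surroundings in every mouse. The excess was uneven, with median reads over mice of 478.5 to 1080 at the CpGs 60 to 137 bp from the start. The CpGs 29 to 57 bp from the start had 295.5 to 325.5, compared with 288.5 to 290 at those 6 to 11 bp from it. The part at 29 to 57 bp included the highest single level, 60.3% in knockout 45. The 12 CpGs had 409 reads per CpG in knockout 46 and 905 in knockout 45, compared with 296 and 333 on either side. The ratio of reads in the stretch to reads beside it was lowest in knockout 46 (1.38), the mouse of lowest level, and highest in control 37 (3.43). It did not follow the level throughout, since control 34, at 3.35%, had a ratio of 2.13 and knockout 25, at 20.6%, one of 1.70. Ndufs6 is 1 of 5 members with a named pseudogene. That copy, Ndufs6b on chromosome 7 (chr7:81161273-81161746), had 8 CpGs covered in all mice with a median level of 93.0%. Whether reads of the copy were placed at Ndufs6 was not tested.

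The isoform pairs of complex IV gave the other 2 departures from low gene ends. Cox6a2, the heart and skeletal muscle isoform, was almost fully methylated, whereas its broadly expressed counterpart Cox6a1 was not. Cox6a2 is 932 bp long, so the window takes in all of it, and its measured CpGs all lay inside the gene. No start was known for Cox6a2, whereas the window of Cox6a1 holds its start. The pair thus sets CpGs inside a gene of unknown start against CpGs around a known start. Over 9 CpGs (chr7:128205675-128206267), Cox6a2 stood at 97.0, 95.4, 95.8 and 96.8% in knockouts 25, 28, 45 and 46 and at 95.7, 97.3, 97.0 and 97.3% in controls 1, 34, 36 and 37. Over 38 CpGs, Cox6a1 lay between 0.0135 and 0.137% in the same mice. The difference within mice was 96.5 percentage points ± 0.753 (SD, n = 8), in the same direction in 8 of 8 mice, with p = 0.0078125 in an exact two-sided sign-flip permutation test, the smallest p this test can give for 8 mice, and an adjusted p of 0.015625 over 3 pairs.

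Cox4i2, an isoform known from lung and induced by low oxygen, was partly methylated in most mice. No start was known for it or for Cox4i1, and the measured CpGs of Cox4i2 lay inside the gene. Over 7 CpGs (chr2:152754204-152754484) its level was 2.46, 1.63, 14.6 and 4.70% in knockouts 25, 28, 45 and 46. It was 11.3% in control 1, 18.8% in control 36 and 11.6% in control 37, and 0 of 1042 reads were methylated in control 34, which allows a level of up to 0.288%. The group ranges overlapped, with means of 5.84% ± 5.97 (SD, n = 4) in knockouts and 10.5% ± 7.78 (SD, n = 4) in controls. The moderated model gave the genotype difference an unadjusted p of 0.267 and an adjusted p of 0.958. Cox4i1, the broadly expressed isoform, lay between 0.242 and 1.10% over 104 CpGs. The difference of 7.62 percentage points ± 6.88 (SD, n = 8) was positive in 7 of 8 mice, with an adjusted p of 0.015625 by the exact permutation test. Within 500 bp of the gene boundary the difference was 3.25 points and the adjusted p was 0.125, so this result depends on the window.

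Cox6b2, the testis isoform, was close to its counterpart in level. The measured CpGs of Cox6b2 (chr7:4752126-4752803) lay inside the gene, and 0 of the 10 CpGs in its promoter sequence had a value. At Cox6b1, 9 of 17 promoter CpGs had one. The level of Cox6b2 over 12 CpGs was 2.32, 0.0401, 0.0399 and 0.705% in knockouts 25, 28, 45 and 46 and 0.540, 1.08, 1.26 and 0.865% in controls 1, 34, 36 and 37. Cox6b1 stood at 0.0530, 0.0456, 0.0220 and 0.0372% in the knockouts and at 0.391, 0.188, 0.239 and 0.190% in the controls. The difference between the isoforms was 0.711 percentage points ± 0.742 (SD, n = 8), positive in 7 of 8 mice, with an adjusted p of 0.015625 by the exact permutation test. It was 0.635 points with an adjusted p of 0.0586 in the 500 bp window. Cox7a1, the muscle isoform of the fourth pair, could not be compared at its end. The plot of the pairs shows how unlike the 3 tissue-restricted isoforms were, with levels near 96.5%, 8.15% and 0.856%.

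**Figure D4:**
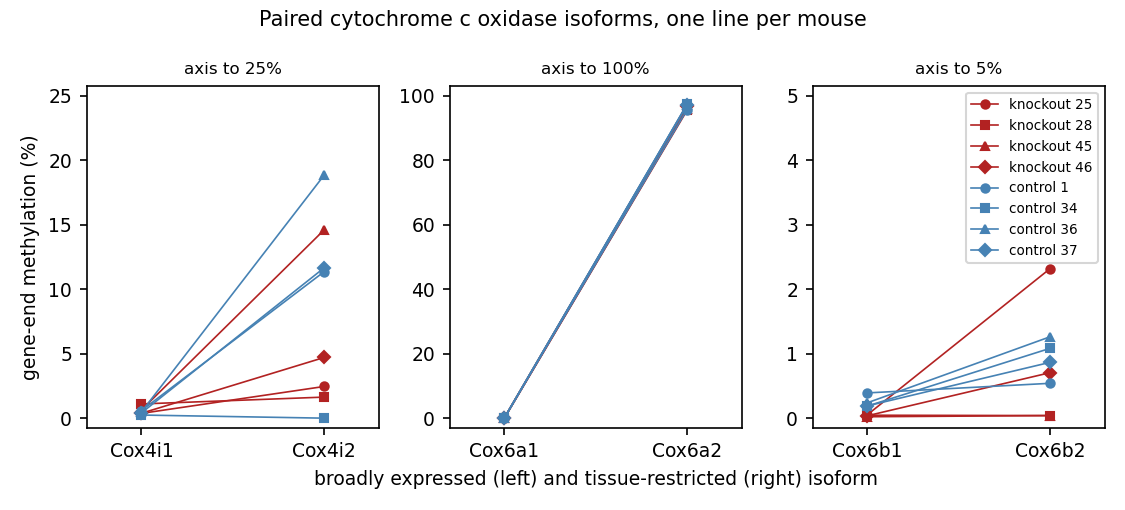
Gene-end methylation (%) of the broadly expressed and the tissue-restricted isoform of 3 complex IV subunits, 1 line per mouse, knockouts in red and controls in blue; each panel has its own axis, up to 25, 100 and 5%. Cox6a2 is near 96.5% in every mouse, Cox4i2 ranges from 0 to 18.8% and Cox6b2 stays under 2.5%.

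Knockouts and controls were then compared over all autosomal protein-coding genes, for compartments with a mean level of 5 to 95%. No gene end of any gene passed an adjusted p of 0.05 in the moderated quasi-binomial model (0 of 1890, 0%). Of the members, only Ndufs6 and Cox4i2 were in the tested range, and neither passed an unadjusted p of 0.05, a level that 5.93% of all tested gene ends reached. Neither had groups that did not overlap, which 3.49% of all tested gene ends had. limma on log2 ratios of the reads also called no gene end. Averaged over the 44 measured gene ends, the level was 2.94% ± 0.432 (SD, n = 4) in knockouts and 3.16% ± 0.359 (SD, n = 4) in controls. These averages mostly reflect Cox6a2, Ndufs6 and Cox4i2, at 96.5, 14.4 and 8.15% over the 8 mice, whereas the median gene end stood at 0.207%.

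Of the 41 gene ends under 5%, 27 had a lower mean in knockouts and 14 a higher one, whereas 49.3% of 11152 such ends of all genes were lower. The groups did not overlap at 3 of the 41, Sdha, Cox6b1 and Cox8a, compared with 2.62% of all such ends, and the knockouts were the lower group at all 3, as at 1.47% of all such ends. These genes were named after their values were seen. The values were small: Cox8a, a short membrane subunit of complex IV, stood at 0.0315% ± 0.0154 (SD, n = 4) in knockouts and 0.220% ± 0.128 (SD, n = 4) in controls. Cox6b1 had 2 to 5 methylated reads per knockout mouse, out of 6579 to 9427, and 14 to 26 per control mouse, out of 5871 to 9987. At Sdha, knockout 46 had 2 methylated reads of 4827 and control 36 had 2 of 4633, so the nearest mice of the groups had the same number of methylated reads. Gene ends under 5% were outside the tested range, and no test is given for them.

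The opposite boundary of a gene, the one with fewer CpGs, was measured in 7 members and was not tested. It was over 80% in 5 of them, Ndufb5, Ndufb7, Sdhd, Uqcrc1 and Cox4i1, with 87.1% at Uqcrc1 as the lowest of these. It was low in the other two, Atp5b at 0.0676% and Cox6b2 at 3.39%.

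Gene bodies of the members were highly methylated in both genotypes. Of 12 measured, 8 were over 80%, and the highest was Ndufa9 at 96.0% over 26 CpGs. Atp5c1 stood at 95.9% over 7 CpGs. The low values of Cox5a (0.536%, 86 CpGs) and Cox7a2 (0.142%, 37 CpGs) come from the CpGs around their RefSeq start, which lies inside the gene model. Intermediate levels were found at Ndufs7 (65.4%) and Sdhb (75.5%).

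None of the 5 bodies in the tested range passed an adjusted p of 0.05 in the moderated model, and none of all 7826 bodies tested did (0%). limma on log2 ratios called none either. It put 1 of the 5 at an unadjusted p under 0.05, and the share of all bodies at that level by limma is not given here. In the moderated model none of the 5 passed an unadjusted p of 0.05, which 4.42% of all bodies did, and none had groups without overlap (2.38% of all). Ndufb7, an accessory subunit on the membrane arm of complex I, had the smallest p. Its 3 CpGs stood at 94.1, 92.5, 88.2 and 94.1% in knockouts 25, 28, 45 and 46 and at 95.7, 96.6, 94.0 and 96.1% in controls 1, 34, 36 and 37. Knockout 45 was the lowest mouse, and the lowest control lay below the highest knockout. The difference was -3.37 points (unadjusted p 0.0735, adjusted p 0.953).

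Sdhb, the iron-sulfur subunit of complex II, had the widest spread among the bodies. It stood at 83.1, 86.6, 85.6 and 84.5% in knockouts 25, 28, 45 and 46. In controls 1, 34, 36 and 37 it was 83.5, 25, 80.1 and 75.7%. Control 34 stood apart, with 20 reads at each of the 4 CpGs, all within 29 bp (chr4:140972005-140972033), compared with 31 to 33 in knockout 46, which stood at 84.5%, and up to 257 in knockout 45. The group means were 85.0% ± 1.51 (SD, n = 4) in knockouts and 66.1% ± 27.6 (SD, n = 4) in controls, and the control mean was 79.8% without control 34. The adjusted p with all mice was 0.954.

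The other 3 bodies had overlapping groups. Ndufa10, an accessory subunit of complex I, stood at 82.3, 87.1, 86.9 and 82.0% in knockouts 25, 28, 45 and 46 and at 82.7, 83.2, 80.5 and 81.7% in controls 1, 34, 36 and 37. Ndufs7 stood at 63.4, 69.6, 66.5 and 63.1% in the knockouts and at 67.0, 63.7, 64.3 and 65.8% in the controls. Cox4i1 stood at 88.9, 92.0, 94.5 and 98.5% in the knockouts and at 91.3, 91.0, 92.8 and 93.6% in the controls. The group means differed by 2.58 points at Ndufa10, 0.43 points at Ndufs7 and 1.31 points at Cox4i1.

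Flanks, from 1000 to 5000 bp outside the gene, were mixed in level, and many of them reach into a neighbouring gene. Their median was 16.4% over 22 measured members and 55.2% over 7770 genes. Of 669 flank CpGs, 304 lay within 1000 bp of a neighbouring protein-coding gene's boundary, inside or outside that gene, with a median level of 0.255%. A further 312 lay inside a neighbour and more than 1000 bp from such a boundary, with a median of 0.0853%. The remaining 53 CpGs, in no protein-coding gene and not within that distance of one, had a median of 94.8%, and 83% of them were over 80%. The median of the 312 CpGs was set by a few neighbours. Of 18 pairs of a member and a neighbour that holds some of these CpGs, 5 had a median under 5% and contributed 254 of the 312 CpGs. Among them were 130 CpGs beside Ndufv2 inside Ankrd12 at 0.0632% and 65 beside Atp5b inside Baz2a at 0.0413%. The other 13 pairs, with 58 CpGs, had medians over 75%, such as 96.3% beside Ndufa2 inside Tmco6 and 97.6% beside Ndufa5 inside Asb15.

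No flank passed an adjusted p of 0.05, among 12 members tested and among all 4353 genes tested (0 called, 0%), by the moderated model or by limma. Of the 12, 1 passed an unadjusted p of 0.05, compared with 5.49% of all flanks, and none had groups without overlap (2.96% of all). That flank was Cox5a, with 5 CpGs next to Fam219b. It stood at 9.60, 5.12, 18.7 and 11.6% in knockouts 25, 28, 45 and 46 and at 17.7, 24.1, 22.8 and 24.6% in controls 1, 34, 36 and 37. Most knockouts lay below the controls, and knockout 45 lay above control 1. The difference was -11.01 points with an unadjusted p of 0.0145 and an adjusted p of 0.794. Without control 34, 5 of 16 member flanks in the tested range passed an unadjusted p of 0.05, as did 608 of 4574 over all genes, and after adjustment 18 flanks of all genes and no member passed.

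The reads of the groups were spread differently over the Cox5a CpGs. The CpG at chr9:57535943, which was methylated at 100% in knockouts and 96.9% in controls, took 6.25% of the reads in knockouts and 18.4% in controls. The other 4 CpGs were at 13.1% or less. With each CpG given equal weight, the levels were 24.4% in knockouts and 23.8% in controls.

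The next 5 flanks by p had overlapping groups. Ndufb8, an accessory subunit of complex I, stood at 9.12, 13.3, 7.98 and 12.97% in knockouts 25, 28, 45 and 46 and at 16.8, 10.3, 17.3 and 12.6% in controls 1, 34, 36 and 37. Its group means were 10.9% and 14.2%, and with equal weight per CpG they were 24.3% and 24.4%. Cox5b, a zinc-binding subunit of complex IV, stood at 79.98, 85.2, 85.9 and 83.6% in the knockouts and at 80.9, 76.4, 72.2 and 80.7% in the controls. Here 3 knockouts lay above all controls, and knockout 25 lay below 2 of them. With equal weight the means were 85.4% and 85.2%.

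Ndufs3 and Ndufs8, core subunits of complex I, had low flanks. Ndufs3 stood at 7.71, 7.60, 8.53 and 6.92% in knockouts 25, 28, 45 and 46 and at 11.2, 7.20, 10.5 and 7.82% in controls 1, 34, 36 and 37. Ndufs8 stood at 10.1, 15.3, 12.5 and 9.06% in the knockouts and at 12.5, 9.39, 15.2 and 18.7% in the controls. With equal weight per CpG, the group means were 14.5 and 15.6% at Ndufs3 and 17.7 and 17.1% at Ndufs8. Ndufb7 stood at 56.8, 68.3, 69.6 and 66.0% in the knockouts and at 68.4, 65.1, 62.6 and 73.8% in the controls. The adjusted p of these 5 flanks ranged from 0.917 to 0.971. The 6 remaining tested flanks spanned the range from low to high. Cox4i2, whose flank CpGs lie mostly inside Bcl2l1, stood at 8.90% ± 4.79 (SD, n = 4) in knockouts and 10.4% ± 5.13 (SD, n = 4) in controls. Ndufs6 stood at 15.5% ± 8.04 and 16.7% ± 9.98, with control 1 the highest mouse at 30.8%. Ndufb10 stood at 29.3% ± 1.92 and 30.4% ± 7.87, and its flank joins CpGs inside Rps2 at a median of 0.0375% with CpGs beside Rpl3l at 86.7%. Cox6b1 stood at 50.9% ± 11.6 and 54.1% ± 15.2, Cox4i1 at 69.7% ± 4.09 and 66.8% ± 8.34, and Ndufab1, the mitochondrial acyl carrier protein, at 92.9% ± 3.45 and 92.3% ± 4.48. Each of these 6 differences was smaller than the SD of either group. The plot of the tested compartments shows the overlap of the groups for every member in the tested range.

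**Figure D5:**
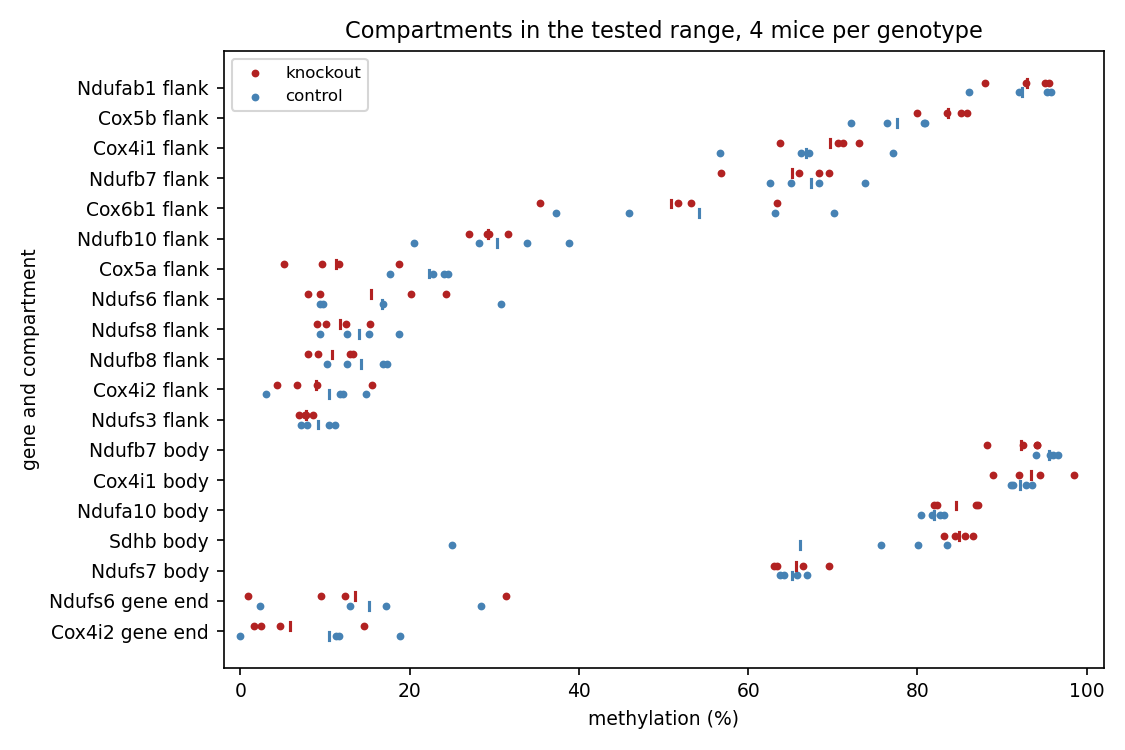
Methylation level (%) of the 19 compartments of these genes with a mean level of 5 to 95%, with 4 knockout (red) and 4 control (blue) mice as points and group means as vertical bars. The groups overlap in every row, and control 34 lies apart at 25% in the Sdhb body.

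At single CpGs, 210 CpGs of the members were in the tested range and none passed an adjusted p of 0.05, compared with 23 of 313039 over the genome (0.00735%). At an unadjusted p of 0.05, 11 of the 210 passed (5.24%), compared with 6.52% of all, and 6 of these were lower in knockouts. The smallest adjusted p of a member CpG was 0.708, by the moderated model, and limma called no member CpG. The 5 CpGs of smallest p lay in flanks of Ndufb7 and Ndufs8 and in the body of Ndufs4.

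The first of these, chr8:83573251, lies inside Tecr, the neighbour of Ndufb7. Its level was 9.48, 0.405, 0 and 0.735% in knockouts 25, 28, 45 and 46 and 18.5, 36.8, 19.2 and 24.7% in controls 1, 34, 36 and 37. Every knockout lay below every control, at a CpG named for its small p. The share of all tested CpGs with groups that do not overlap was not counted. Another CpG of that flank, chr8:83573171, stood at 45.1, 46.3, 15.4 and 50.7% in the knockouts and at 59.8, 71.4, 55.9 and 56.0% in the controls. The flank as a whole went the same way by only -2.29 points, with neighbouring CpGs higher in knockouts. At Ndufs8, chr19:3904685 was at 100% in every knockout and at 51.9, 100, 82.8 and 77.6% in controls 1, 34, 36 and 37. The CpG chr19:3904872 had values for 6 mice, with 0, 50 and 37.01% in knockouts 25, 28 and 45 and 72.7, 100 and 100% in controls 1, 36 and 37, from as few as 10 reads. The CpG chr13:114357399 in the body of Ndufs4 stood at 75.8, 100, 74.7 and 100% in the knockouts and at 97.0, 96.0, 95.8 and 100% in the controls. The adjusted p of these 5 CpGs was between 0.708 and 0.756.

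The remaining genes of the pathway gave the same division. Of 80 other subunits, assembly factors and regulators, 77 were matched on the autosomes, and 66 of 69 measured gene ends were under 5%, with a median of 0.181%. The median of 31 measured bodies was 92.2%. None of 2 gene ends, 15 bodies and 20 flanks in the tested range passed the adjusted threshold in either direction. In the moderated model 1 of the 15 bodies passed an unadjusted p of 0.05, as did 4.42% of all tested bodies. This body was that of Gabpb1, a subunit of the ETS factor GABP, with 4.26% ± 1.13 (SD, n = 4) in knockouts and 6.42% ± 1.35 (SD, n = 4) in controls and an adjusted p of 0.953. The RefSeq start of Gabpb1 lies inside the gene model, so its body can take in CpGs around the start. The others named for their p were flanks, and none of the 20 flanks passed an unadjusted p of 0.05 in the moderated model (0.203 at Atp5d). That of Uqcc2, an assembly factor of complex III, stood at 84.4% ± 3.38 in knockouts and 88.5% ± 1.83 in controls (SD, n = 4 each). That of Cox16, an assembly factor of complex IV, stood at 93.0% ± 5.02 and 96.7% ± 2.24, and that of Atp5d, a subunit of complex V, at 4.97% ± 2.00 and 7.35% ± 3.19. Their adjusted p was 0.917 each.

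Gene ends of 20% or more among these genes included those of Polrmt and Atpaf2. For Polrmt, the mitochondrial RNA polymerase, the end with more CpGs was the far end of the gene, at 81.8% in both groups, and the end with the start had 0.397% and 0.101%. The measured end of Atpaf2, an assembly factor of complex V, was likewise not its start, with 100% and 98.3%.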

How the data were processed

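DNA methylation was measured in 8 libraries, each from 1 mouse, 4 per group. Per the file headers, the deposited tables give for each cytosine a coverage, which is the authors' count of reads, and the percent of those reads showing C or T; no listed cytosine had under 10 reads. The submitters' processing notes name Bismark, mm10 as the build and CASAVA 1.8.2. Read filters and duplicate handling by the authors: not given in the sources used here. Methylated and unmethylated reads were recovered as coverage times percent, rounded, and both strands of a CpG were added.

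Within a compartment, reads of all CpGs covered in all 8 mice were added. Genotypes were compared by a logistic model with quasi-binomial overdispersion, moderated with limma 3.58.1 in R 4.3.3 (overdispersion not under 1) and Benjamini-Hochberg adjustment over all autosomal protein-coding genes with at least 3 CpGs and a mean level of 5 to 95%. CpGs were tested likewise, and mice with under 10 reads at a CpG were left out of its fit. The model was also run on simulated data, and the outcome of that run is not given here. Isoform pairs were compared by an exact sign-flip permutation test. The p-values measure the spread between mice. Genes were placed by RefSeq GRCm38.p6 coordinates.

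Named with values in every mouse were gene ends of 5% or more, the isoform pairs, the 6 members of smallest p per compartment and the 5 CpGs of smallest p; the lowest and highest ends and bodies per complex were named with means. Of the other pathway genes, those of smallest p or with an end of 20% or more were named; 1 of these is not reported here. The members, lists and tests were chosen with earlier results of these data known.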

Additional observations from a re-analysis of the deposited data

Results flagged for a closer look

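In 2 of 36 groups of 4 mice checked for the named levels, a single mouse lay far from the other 3 of its group, by Dixon's criterion at the 95% level; chance alone gives this in about 1 in 20 groups. The gene end of Cox6a2 in control 1, at 95.7%, was lower than in the other controls, the nearest of which stood at 97.0%. The body of Sdhb in control 34, at 25%, was lower than in the other controls, the nearest of which stood at 75.7%. The Sdhb value comes from 20 reads at each of 4 CpGs, and control 34 also had the lowest coverage of methylated relative to unmethylated CpGs of all mice, 0.348; the part of either in the low value was not tested.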

How the results depend on the processing

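Knockouts could not be paired with controls, because the mouse numbers of the knockouts and the controls have none in common. No member was called at an adjusted p of 0.05 under any alternative, in gene ends, bodies, flanks or single CpGs, although the counts over all genes moved. The number of CpGs called, 23, became 40 with a minimum of 20 reads, 82 with 50 reads, 1 without the most covered CpGs and 14 without knockout 25 and control 34 together. It became 0 with levels of 1 to 99%, 0 with limma and 0 without moderation; leaving out single mice gave 1 (without knockout 25) to 191 (without knockout 45), with 39 without control 1 and 47 without control 34. The number of flanks called, 0, became 6 without knockout 25 and control 34 together and 0 to 18 when single mice were left out, with 18 without control 34. The cause was not tested. In the 500 bp window, the difference between Cox4i2 and Cox4i1 was 3.25 points and that between Cox6b2 and Cox6b1 0.635 points, neither past the threshold. Of 432 named levels recomputed under alternatives, 11 moved by more than 1 SD, mostly with equal weight per CpG. Depth limits the compartments of few CpGs most, such as the Sdhb body with 80 reads in control 34.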
